A study of Mus musculus with 108 samples.

Results

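Control mouse oocytes kept for 3 hours in culture (GV3h) were compared with control oocytes at the germinal vesicle (GV) stage, across all genes of the polyA libraries. The members were chosen by sample title: 8 control GV3h oocytes and 7 control GV oocytes, 15 of the 108 samples of the series. The study set control oocytes beside oocytes with an oocyte-specific knockout (cKO) of Exosc10, which encodes an exonuclease acting with the RNA exosome in the nucleus. Each library was made from the polyA RNA of 1 oocyte, and the V number in its title is the female it came from, per the series' design text. The 7 GV oocytes came from females V856 (3 oocytes) and V889 (4 oocytes), and the 8 GV3h oocytes from V951 (2 oocytes), V982 (2 oocytes) and V995 (4 oocytes). Each female gave oocytes of 1 stage, so stage and female cannot be separated by a term for the female. The labels name the controls only as control, and their alleles, strain and age are not given in the sources used here. The labels name GV and 3-hour oocytes together as kept in M2 medium outside the body, and do not say whether or for how long the GV oocytes were cultured. Whether a drug held the GV oocytes in arrest, and whether the 3-hour oocytes had lost their germinal vesicle, is not given in the sources used here.

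A fully grown oocyte is held in prophase of the first meiotic division by cyclic AMP, which the receptor GPR3 keeps high through adenylyl cyclase. When the oocyte leaves its follicle, the phosphodiesterase PDE3A lowers cyclic AMP, CDK1 with cyclin B becomes active, and the nuclear envelope breaks down. The oocyte is almost silent in transcription at that time, so its mRNA pool is known to change mainly through storage, tail lengthening, translation and decay of RNAs made during growth.

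Total gene counts ranged from 5535240 to 6700256 per control GV oocyte and from 4638718 to 5728197 per control GV3h oocyte, so the GV3h libraries were shallower. The numbers of genes with at least 1 count overlapped, 18100 to 19630 against 18530 to 19290, and the mean of female means was 95 lower at GV3h, but 164 higher without V856 and 354 lower without V889. For genes with at least 10 counts the female means did not overlap, at 12987 and 13023 at GV and 12490, 12586 and 12511 at GV3h. Single oocytes ranged from 12730 to 13260 at GV and from 12340 to 12740 at GV3h, so their ranges met. The difference of female means was −476 (exact permutation p 0.1, the smallest possible), and the part of the lower depth in it was not tested. The share of gene counts on the 100 most abundant genes was 18.7% and 18.5% in the GV females and 18.9%, 18.7% and 18.9% in the GV3h females. The shares on mitochondrial genes, on ribosomal protein genes and outside genes overlapped between the stages. Exact two-sided permutation tests over female means of the numbers of genes with at least 1 count and of these 4 shares gave p-values from 0.2 to 0.9 (Benjamini-Hochberg adjusted 0.833 to 0.9), where 10 arrangements allow no p under 0.1. Oocyte transcripts were abundant in both groups, among them Gdf9 (means of 4670 and 4150 CPM, CPM being a count scaled to the total gene counts of its library with TMM factors) and Zp3 (1360 and 1510 CPM). Bmp15, an oocyte growth factor gene, averaged 2930 and 2610 CPM, and Nlrp5, a maternal-effect gene, 1330 and 1360 CPM. Of 12 oviduct and blood cell markers, 9 averaged under 1 CPM at both stages, and the leukocyte and red cell markers Ptprc, Hbb-bs and Hba-a1 were at 0. Pecam1, an endothelial marker, averaged 69.1 and 67.3 CPM, the keratin gene Krt8 2.93 and 3.49 CPM, Epcam 1.12 and 0.823 CPM, the oviduct gene Ovgp1 0.396 and 0.255 CPM, and Pax8, a transcription factor of the oviduct epithelium, 0.023 and 0.0456 CPM. The summed level was 66.9 to 83.2 CPM in GV oocytes and 50.8 to 83.4 CPM in GV3h oocytes.

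The transcriptomes of the stages were close. Across 14015 genes with a mean of at least 1 CPM, the Pearson r of log2(CPM + 1) had a median of 0.972 over 17 pairs of oocytes of the same female. It was 0.966 over 32 pairs of the same stage and other females, and 0.964 over 56 pairs of a GV and a GV3h oocyte. These values describe pairs that share oocytes and are no test.

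With counts summed per female, the edgeR quasi-likelihood test called 0 of 19257 tested genes at an adjusted p under 0.05 (0%). The smallest adjusted p was 0.351. At an unadjusted p under 0.05 there were 680 genes (3.53%), 311 higher (1.61%) and 369 lower (1.92%) at GV3h. DESeq2 on the same sums called 25 genes (0.13%). With each oocyte as a replicate, edgeR called 54 of 15635 genes (0.345%), 34 higher (0.217%) and 20 lower (0.128%), but oocytes of a female are not independent. That count was 14 without V995, 35 without V951 and 37 without V982. A limma voom fit with the female as a random block called 13 genes (0.0831%), and its correlation between oocytes of a female was 0.256. No gene named below passed the main test, edgeR on female sums with the 4 groups, and the DESeq2 and limma voom values are given where they passed.

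The absence of calls bounds the change only where a gene was measured well. Among 3689 genes at 64 CPM and more, the 95% interval of the fold change lay within 2-fold either way for 97.6%. The share was 75.8% of 6065 genes from 8 to 64 CPM, 12.6% of 5385 genes from 1 to 8 CPM and 0.0729% of 4118 genes under 1 CPM. Over all tested genes it was 46.1%. Of the 9754 genes at 8 CPM and more, 72 had a fitted fold change over 2.

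**Figure D1:**
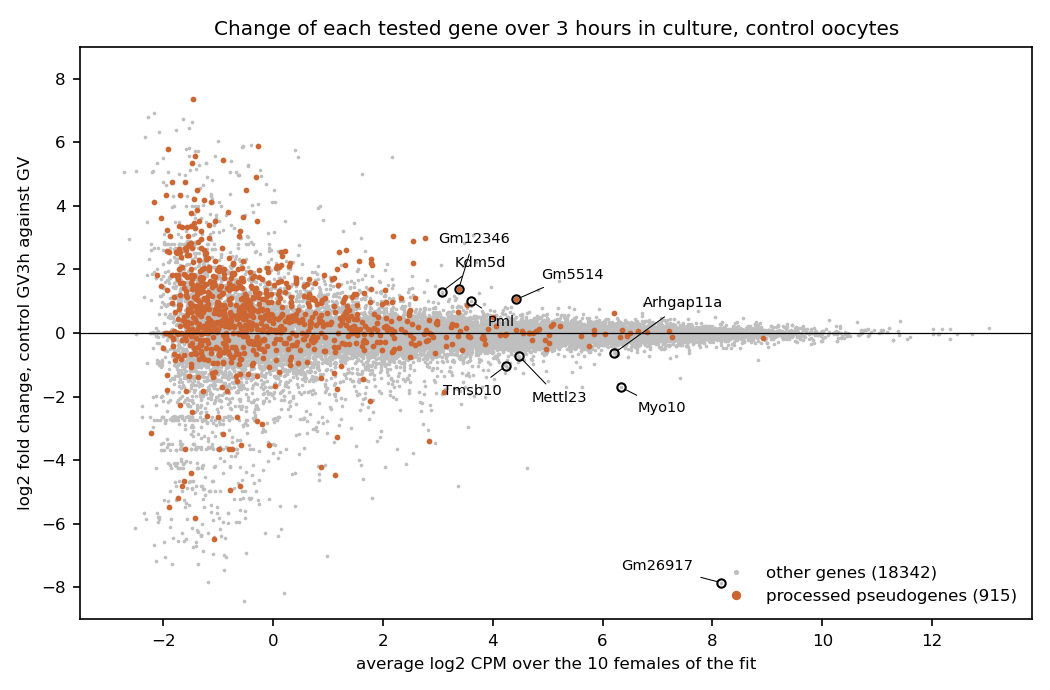
Log2 fold change of control GV3h against control GV oocytes (vertical axis, from female sums) against average abundance in log2 CPM (horizontal axis) for the 19257 tested genes. Orange points are 915 processed pseudogenes, which lie mostly above 0 at low abundance, and circles mark the 9 genes of the naming rule, called with the oocyte as replicate and not by edgeR on female sums.

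Of the genes of meiotic arrest and resumption 0 were called, as of all 19257 tested genes (0%). A list with 0 calls in the main test is therefore no trait of that list, here and below. Counts of intervals within 2-fold are to be read beside the shares by abundance given above. In the arrest pathway, Gpr3 averaged 78.7 ± 8.24 CPM (SD, n = 7) at GV and 74.8 ± 12.9 CPM (n = 8) at GV3h, a log2 change of −0.06 with a 95% interval from −0.51 to 0.38. Pde3a averaged 448 ± 38.3 and 422 ± 27.5 CPM, a change of −0.11 (−0.47 to 0.24). Adcy3, an adenylyl cyclase, and Prkaca, a catalytic subunit of protein kinase A, had log2 changes of 0.11 and 0.04. Of 20 genes of this list 19 were tested and 0 were called, with a median log2 change of −0.07 beside −0.035 over all tested genes. The median was 0.06, with 7 of 19 below 0, without V856 and −0.15, with 17 of 19 below 0, without V889. The intervals of 12 of the 19 lay within 2-fold, and the changes ranged from −1.22 for the phosphodiesterase Pde7b to 0.95 for Prkar1b, a gene under 1 CPM.

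Among 26 genes of meiotic resumption and M phase, such as kinases, cyclins and phosphatases, all tested, 0 were called and 0 had an unadjusted p under 0.05. The intervals of 25 lay within 2-fold. Cdk1 averaged 160 ± 21 CPM at GV and 145 ± 12.8 CPM at GV3h. Ccnb1, its cyclin B1 partner, averaged 327 ± 25.2 and 360 ± 40.4 CPM, a log2 change of 0.08 (−0.30 to 0.45). Wee2, the oocyte kinase that holds CDK1 inactive, had a change of −0.01 (−0.36 to 0.35), and Cdc25b, the phosphatase that activates CDK1, −0.09 (−0.47 to 0.28).

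The 18 lamina and nuclear envelope genes had a median log2 change of −0.01, and 16 intervals lay within 2-fold. Lmna averaged 246 ± 14.4 CPM at GV and 289 ± 25.4 CPM at GV3h, a change of 0.18 (−0.12 to 0.49). Lmnb1, Lmnb2 and Lbr, the lamin B receptor, had changes of 0.03, −0.02 and 0.10.

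Transcripts known to gain poly(A) tails or to be activated in maturation were compared too. All 20 genes of this list had intervals within 2-fold, beside 97.6% of all tested genes at 64 CPM and more. The widest interval was that of Orc6, from −0.73 to 0.91. Of the 20 fitted changes 10 were above 0, and the median was 0 to 2 decimals. Mos, the kinase that starts the MAP kinase cascade, averaged 1850 ± 198 CPM at GV and 1970 ± 282 CPM at GV3h. Plat, tissue plasminogen activator, averaged 2710 ± 353 and 2930 ± 221 CPM, a log2 change of 0.07 (−0.29 to 0.43), and Tpx2, a spindle assembly factor, had −0.04. RNA was captured on oligo(dT), so a value can depend on tail length as well as on the number of molecules, and these cannot be told apart here.

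Of 32 genes for mRNA storage, translation control and poly(A) enzymes, 0 were called and the median change was −0.03. Cpeb1, which binds the cytoplasmic polyadenylation element, averaged 1010 CPM at both stages, with SDs of 121 and 138. Ybx2, the RNA-masking protein of germ cells, had a change of −0.03, Pabpc1l 0.05 and the poly(A) polymerase Tent2 0.07. Of 32 genes of deadenylation and decay, 0 were called and 28 intervals lay within 2-fold. Btg4, the adaptor that recruits the deadenylase to maternal mRNA, averaged 1460 ± 166 and 1490 ± 122 CPM, a change of 0.01 (−0.34 to 0.35). Cnot7 and Cnot6l, deadenylase subunits, had changes of −0.06 and −0.01, and Zfp36l2, which binds AU-rich elements of mRNAs, 0.19 (−0.69 to 1.07). Dis3l, a cytoplasmic exosome ribonuclease, had 0.45 (unadjusted edgeR p 0.0148, adjusted p 1). Tut4, a terminal uridylyltransferase at 0.911 and 0.206 CPM, had −2.16 (−4.21 to −0.12, unadjusted edgeR p 0.0402, adjusted p 1).

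Exosc10 itself was at 42.9 to 55.5 CPM in the 7 GV oocytes, with a median of 47.3, and at 56.5 to 111 CPM in the 8 GV3h oocytes, with a median of 103. The groups did not overlap, and the GV3h females differed among themselves, with means of 56.7 CPM in V951, 103 CPM in V982 and 105 CPM in V995. The log2 change was 0.83 (SE 0.34, 0.07 to 1.59, edgeR adjusted p 1), so it did not pass. MII eggs of controls averaged 93.7 ± 38.6 CPM (n = 8). The other 18 exosome genes had changes from −0.58 for Exosc6 to 0.15 for Zcchc7, and 0 were called. Among them were the catalytic subunit Dis3 (−0.06), the helicase Mtrex (−0.04) and Exosc3 (0.05).

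In the spindle list, 28 of 29 genes were tested, all 28 intervals lay within 2-fold and the median was 0 to 2 decimals. Bub1b, a checkpoint kinase, averaged 1290 ± 192 and 1340 ± 105 CPM. Aurkc, the meiotic Aurora kinase, had a change of −0.05, Mad2l1 0.08 and the kinesin Kif11 −0.13. In the actin and asymmetric division list, 23 of 25 intervals lay within 2-fold. Its changes included 0.01 for the actin nucleator Fmn2, −0.10 for Spire1, 0.19 for Spire2 and −0.06 for Actb.

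Stress-responsive transcripts were examined because the oocytes had been in culture. Of 29 immediate early and short-lived mRNAs, 22 were tested, 0 called and 7 had intervals within 2-fold. Egr1 averaged 11.1 ± 3.74 CPM at GV and 12.3 ± 2.28 CPM at GV3h, a change of 0.14. Fos averaged 0.294 and 0.231 CPM, Jun 0.0206 and 0.0228 CPM, and Myc was at 0 in all 15 oocytes. Heat shock chaperones gave 0 calls among 19 tested genes, 14 with intervals within 2-fold, and changes of 0.09 for Hsp90aa1 and −0.47 (−1.84 to 0.90) for Hspa8. The inducible Hspa1b averaged 2.82 and 0.942 CPM, a change of −1.85 (−3.92 to 0.21), and the heat shock factor gene Hsf2 6.33 and 3.63 CPM, a change of −0.89 (unadjusted edgeR p 0.043, adjusted p 1). Of the unfolded protein and oxidative stress genes 24 were tested, 0 called and 13 had intervals within 2-fold, with −0.19 for the chaperone Hspa5, −0.08 for Ddit3 and 0.01 for Atf4. Xbp1, a transcription factor of this response, averaged 0.918 and 0.247 CPM, a change of −1.98, and the co-chaperone gene Dnajb9 7.66 and 5.32 CPM, a change of −0.64 (unadjusted edgeR p 0.0354 and 0.0336, adjusted p 1 for both). Hspa1a (0.315 and 0.455 CPM) and Hmox1 (0.851 and 1.06 CPM) were close to 1 CPM or below it. In controls the immediate early, heat shock and unfolded protein lists had median changes of −0.02, −0.11 and −0.04. In cKO oocytes these medians were 0.19, 0.11 and 0.12. Hsf2, Xbp1 and Dnajb9 had changes of 0.43, 0.84 and 0.73 in cKO oocytes.

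**Figure D2:**
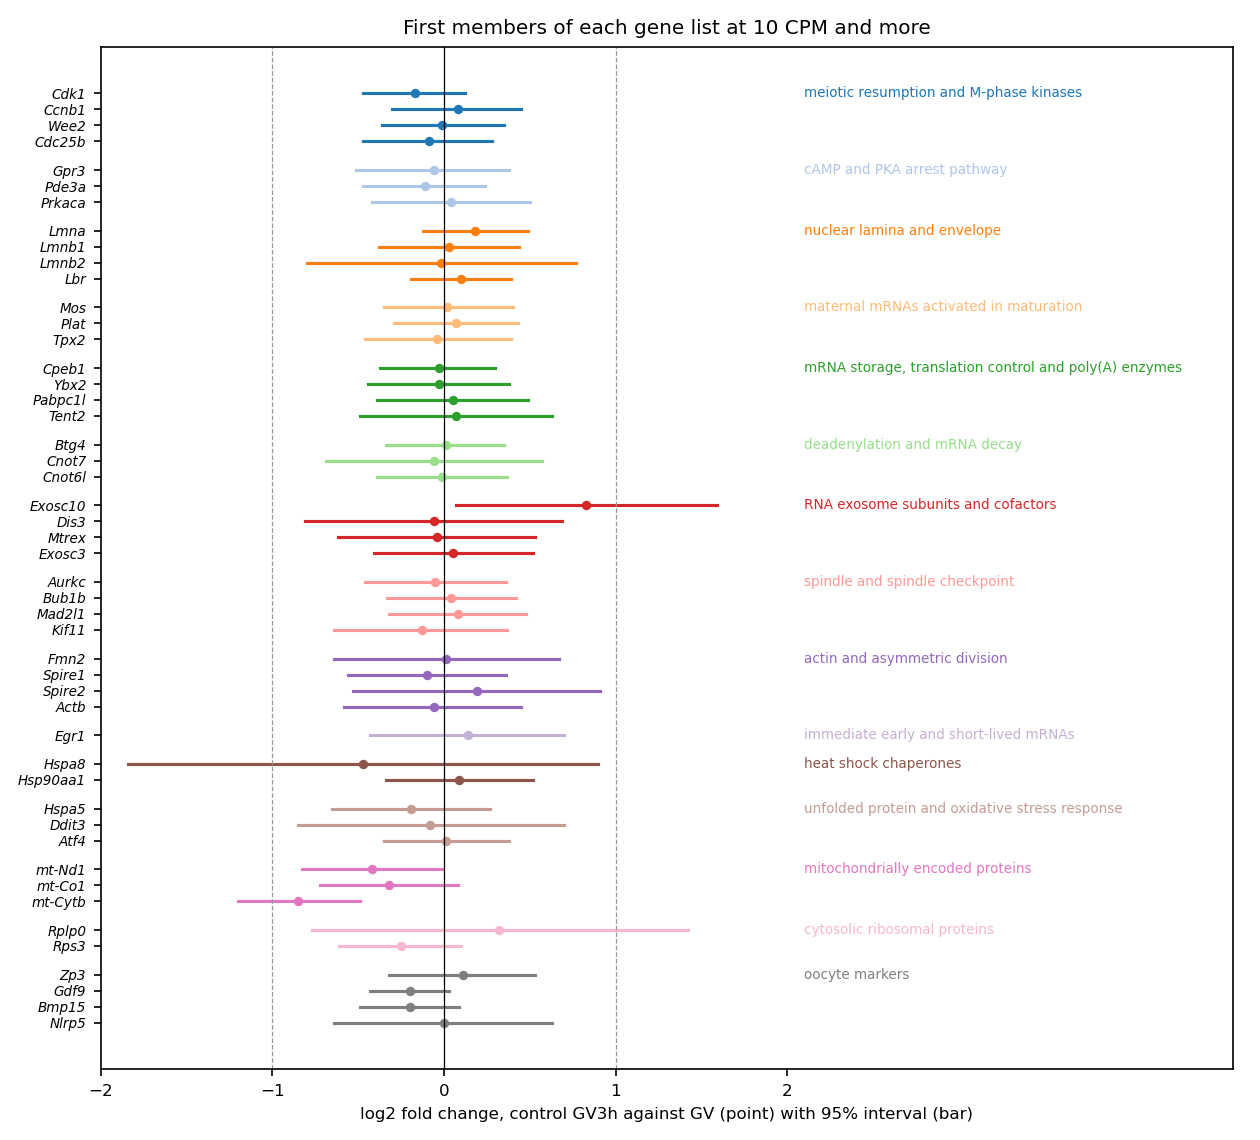
Log2 fold change of control GV3h against GV (point) with its 95% interval (bar) for the 48 first-named list genes at a mean of 10 CPM and more; dashed lines mark 2-fold. The intervals of 44 lie within 2-fold, and the other 4 are Exosc10, Hspa8, mt-Cytb and Rplp0.

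Of 13 mitochondrially encoded protein genes 7 were tested and 0 were called, in edgeR on female sums and with the oocyte as replicate. All 7 had fitted changes below 0, from −0.85 to −0.32 with a median of −0.45, and 4 had an unadjusted edgeR p under 0.05. The share of gene counts on mitochondrial genes overlapped, at 0.362% and 0.303% in the GV females and 0.273%, 0.35% and 0.31% in the GV3h females. The share of all tested genes above 0 was 44%. The other 6 members, mt-Atp6 (0.0668 and 0 CPM) among them, were at or near 0 CPM in both groups, so nothing can be said of them. mt-Cytb, cytochrome b of complex III, was at 326 to 745 CPM in GV oocytes with a median of 483, and at 182 to 405 CPM in GV3h oocytes with a median of 288. Oocytes of the stages overlapped, but female means did not, at 519 and 468 CPM against 246, 309 and 295 CPM. The log2 change was −0.85 (SE 0.16, −1.20 to −0.49), with an unadjusted p of 0.00029 and an adjusted edgeR p of 0.463, and DESeq2 on the same sums gave an adjusted p of 0.00721. mt-Nd1 and mt-Nd2, of complex I, had changes of −0.42 and −0.51, and mt-Co1, of complex IV, −0.32. In the cKO oocytes, which share no sample with the controls, all 7 were again below 0 and the median was −0.61. These libraries select polyadenylated RNA, and whether the tails or the amounts of these transcripts differed cannot be told apart.

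Cytosolic ribosomal protein genes had a median log2 change of −0.21 in controls, with 67 of 81 tested genes below 0 and 0 called. In cKO oocytes the median was 0.16, with 69 of 81 above 0. Without control female V889 the control median was −0.07, with 49 of 81 genes below 0, and without V856 it was −0.36, with 75 of 82 below 0. Rps3 and Rplp0, of the small and the large subunit, had control changes of −0.25 and 0.32. Rpl3 (0.995 and 1.07 CPM) and Rps6 (1.76 and 2.45 CPM) had 0.13 and 0.51.

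Markers of cumulus and granulosa cells, which surround the oocyte, were not even. Of 22 markers, 12 averaged under 1 CPM at both stages, and the summed level was 106 to 146 CPM in GV oocytes and 93.1 to 139 CPM in GV3h oocytes. Most of that sum lay in Nr5a2 (37.2 and 35.9 CPM), Cyp19a1 (36.7 and 36.1 CPM), Gata4 (26.2 and 30.5 CPM) and Kitl (7.86 and 8.44 CPM), with log2 changes from −0.06 to 0.17. Foxl2, Ptx3 and Tnfaip6 were at or near 0. Inha, an inhibin subunit, averaged 16.5 CPM in V856 and at most 1.17 CPM in the other 4 control females. Hsd17b1 (6.66 CPM) and the gap junction gene Gja1 (6.63 CPM) were likewise highest in V856, and at most 0.433 and 0.418 CPM elsewhere. Amh, the anti-Müllerian hormone gene, averaged 0.307 CPM at GV and was at 0 in all GV3h oocytes, and Has2, a hyaluronan synthase gene, averaged 0.358 and 0.494 CPM. The median change of the 15 tested markers was −0.51, with 10 below 0. It was 0.22 for 18 markers without V856 (5 below 0), −1.51 for 19 without V889 (13 below 0), −0.22 for 15 without V982 (11 below 0) and −0.06 for 11 with the oocyte as replicate (7 below 0). Their part in other results was not tested.

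The fit with the oocyte as replicate gave the genes that stood out most. Its p-values, given below as over oocytes, count oocytes of a female as independent replicates, which they are not. They show how the genes were chosen and are no support for a change with stage. Of its 20 lower genes, 6 were high in V889 only, while V856 was no higher than the highest GV3h female. These were Timm10, Alyref2, Fmo6, Gm15486, Gm16548 and B930036N10Rik, named after their values were seen. Timm10, of the mitochondrial import machinery, averaged 106 CPM in V889, 19 CPM in V856 and 18.3 to 21.6 CPM in the GV3h females. For the other 14, female means did not overlap. The genes called in this fit were chosen from these same oocyte values. A lack of overlap between their single oocytes, where given below, is thus a description. Of all genes tested, 9.62% had lower and 9.01% had higher female means at GV3h with no overlap of the stages.

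Myo10 (ENSMUSG00000022272, GRCm38 chr15:25622525-25813673), an unconventional myosin of filopodia, was at 52 to 161 CPM in GV oocytes with a median of 123, and at 14.6 to 52.7 CPM in GV3h oocytes with a median of 35.3. Its female means were 137 and 90 CPM at GV and 46.3, 38.3 and 24 CPM at GV3h, and 7 of 8 GV3h oocytes were below every GV oocyte. The log2 change was −1.71 (SE 0.34, −2.47 to −0.95), with an edgeR adjusted p of 0.567 on female sums, 0.00713 with the oocyte as replicate and, by DESeq2 on female sums, 0.00515. In cKO oocytes it was −0.51 (−1.26 to 0.24), and MII eggs of controls averaged 20.1 ± 12.2 CPM.

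Tmsb10 (ENSMUSG00000079523, chr6:72957347-72958748), thymosin beta 10, which binds actin monomers, was at 16.7 to 28.2 CPM at GV with a median of 22.8. At GV3h it was at 9.09 to 14.6 CPM with a median of 11.3. All GV3h oocytes were below all GV oocytes, so the female means did not overlap either. The change was −1.03 (SE 0.27, −1.62 to −0.44, adjusted edgeR p 1 on female sums and 0.0271 over oocytes), against 0.35 (−0.24 to 0.94) in cKO oocytes.

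Arhgap11a (ENSMUSG00000041219, chr2:113831492-113848661), a GTPase-activating protein for RhoA, was at 71.7 to 110 CPM at GV with a median of 88.8, and at 50.6 to 65.2 CPM at GV3h with a median of 58.5. All GV3h oocytes were again below all GV oocytes, and female means were 96.8 and 80.7 CPM against 63.5, 58.6 and 54.9 CPM. Its change was −0.63 (SE 0.17, −1.01 to −0.24, adjusted edgeR p 1 on female sums and 0.0295 over oocytes), against −0.14 in cKO oocytes. MII eggs averaged 91.1 ± 23.3 CPM.

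Mettl23, a histone arginine methyltransferase of the oocyte, had female means of 15.4 and 30.3 CPM at GV and of 13.8, 14 and 14.1 CPM at GV3h, so most of its change of −0.73 lay in V889. Ctsl, the protease cathepsin L, was under the abundance limit of the naming rule and is named after its values were seen. It averaged 5.29 and 1.93 CPM in the GV females and 0.275 to 0.532 CPM in the GV3h females. Its change of −3.04 had an adjusted edgeR p of 0.351 on female sums and 0.0161 over oocytes (DESeq2 on female sums 0.000216), and in cKO oocytes, where it averaged 6.77 to 13.8 CPM, it was 0.30.

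Gm26917, a lncRNA gene of chromosome 17 known to share sequence with ribosomal RNA, averaged 127 CPM in V856, 1.18 CPM in V889 and 0.185 to 0.38 CPM in the GV3h females. Its change of −7.85 (SE 1.65, adjusted edgeR p 0.701 on female sums and 9.37e-05 over oocytes, DESeq2 on female sums 0.000112) thus rests on V856. In cKO females it averaged 201 to 893 CPM over both stages.

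Among the 34 higher genes, 6 were protein coding and 25 were processed pseudogenes, copies of mRNAs put back into the genome. Pml, a nuclear body protein, was at 1.3 to 10 CPM in GV oocytes with a median of 6.95, and at 9.05 to 18.3 CPM in GV3h oocytes with a median of 12.1. Of the 8 GV3h oocytes 7 were above every GV oocyte, and female means were 6.86 and 5.27 CPM against 12.1, 11.5 and 14.3 CPM. The change was 1.02 (SE 0.27, 0.42 to 1.63, adjusted edgeR p 1 on female sums and 0.0385 over oocytes), against −0.12 in cKO oocytes.

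Kdm5d (ENSMUSG00000056673, chrY:897788-956786), a histone demethylase gene of the Y chromosome, which oocytes do not carry, was at 5.19 to 8.49 CPM at GV with a median of 6.35. At GV3h it was at 12.3 to 25.1 CPM with a median of 16.4. All GV3h oocytes were above all GV oocytes, and the change was 1.30 (SE 0.30, 0.64 to 1.97, adjusted edgeR p 0.927 on female sums and 0.00456 over oocytes). The adjusted p was 0.0091 by DESeq2 on female sums and 0.0449 by limma voom. Female means were 5.95 and 7.18 CPM at GV and 16.2, 12.5 and 20.9 CPM at GV3h. Its homologue on the X chromosome, Kdm5c, averaged 47.9 to 48.7 CPM in the GV females and 44.8 to 45.9 CPM in the GV3h females. In cKO oocytes Kdm5d was at 2.19 to 3 CPM over the female means of both stages, a change of 0.15. MII eggs of controls averaged 0.225 CPM. Reads of such near copies can be split between them, so the counts of Kdm5d are uncertain.

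**Figure D3:**
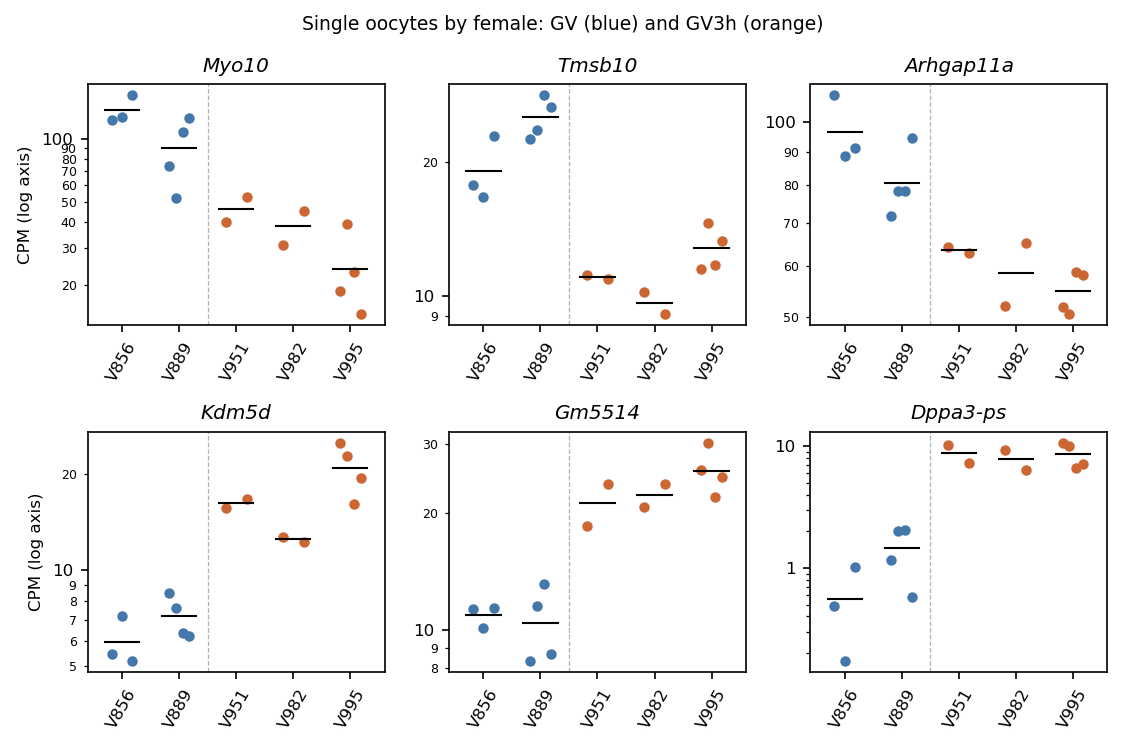
CPM of 6 genes (log axis) in the 15 control oocytes by female, GV in blue and GV3h in orange; the line is the female mean. Myo10, Tmsb10 and Arhgap11a are lower and Kdm5d, Gm5514 and Dppa3-ps are higher at GV3h, and only for Myo10 do single oocytes of the stages overlap.

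The 25 processed pseudogenes were 73.5% of the higher genes. In that fit 369 processed pseudogenes were tested, so 25 of 369 were called higher, beside 0.217% of all genes. Each was matched to its nearest protein-coding transcript, called its parent here, and the identity of the aligned bases ranged from 92.1% to 100%. For 2 of the 25 it was 100%. The pair of Dppa3-ps with Dppa3, a maternal factor that protects the zygote's DNA methylation, is shown because every GV3h oocyte was above every GV oocyte for the copy, and because it shows how few bases tell a copy from its parent. Capitals mark the bases that differ within the pair, 2 of 120. The stretch is bases 3 to 122 of the Dppa3 coding sequence, 5′ to 3′, in GENCODE M21 transcripts.
Dppa3-ps: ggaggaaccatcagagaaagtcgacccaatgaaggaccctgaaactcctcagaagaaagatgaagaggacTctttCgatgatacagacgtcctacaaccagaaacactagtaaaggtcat
Dppa3: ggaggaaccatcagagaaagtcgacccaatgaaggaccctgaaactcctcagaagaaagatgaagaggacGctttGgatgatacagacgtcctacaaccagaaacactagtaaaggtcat

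Dppa3-ps (ENSMUSG00000080241, chrX:37625647-37626097) was at 0.171 to 2.07 CPM in GV oocytes with a median of 1.01, and at 6.33 to 10.7 CPM in GV3h oocytes with a median of 8.3. All 8 GV3h oocytes were above all 7 GV oocytes. The log2 change was 2.98 (SE 0.49, 1.89 to 4.06), with an edgeR adjusted p of 0.351 on female sums and 9.02e-06 over oocytes (DESeq2 on female sums 1.22e-06, limma voom 0.00484), and in cKO oocytes it was 2.68 (1.65 to 3.71). Dppa3 (chr6:122626410-122630272) averaged 1770 CPM at both stages, a change of −0.05. The counts of the copy were 0.0615% of those of Dppa3 at GV, 0.479% at GV3h and 0.0633% in MII eggs of controls. Such a percentage is not corrected for length, and it is compared only between stages.

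The 2 copies that met the naming rule were more abundant. Gm5514, matched to the lactate dehydrogenase gene Ldhb, was at 8.32 to 13.1 CPM at GV with a median of 11.3, and at 18.5 to 30.2 CPM at GV3h with a median of 23.7. Its change was 1.06 (SE 0.21, 0.61 to 1.52, adjusted edgeR p 0.472 on female sums and 2.84e-05 over oocytes), against −0.13 for Ldhb. The adjusted p was 6.3e-05 by DESeq2 on female sums and 0.0449 by limma voom. Gm12346, matched to the chaperone gene Hsp90aa1, was at 2.88 to 7.24 CPM at GV and at 11.9 to 17.1 CPM at GV3h, a change of 1.39 (SE 0.30, 0.72 to 2.06) against 0.09 for Hsp90aa1. Its female means were 4.22 and 6.31 CPM against 14, 13 and 15.1 CPM, with an adjusted p of 0.744 by edgeR and 0.00523 by DESeq2 on female sums.

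Across the 25 copies the median log2 change was 2.13 in controls, and all 25 were above 0 in cKO oocytes too, with a median of 1.39. Of all 915 tested processed pseudogenes 69.3% were above 0 in cKO oocytes, and of all tested genes 48.3%. The control values chose these genes and are a description. The cKO oocytes entered the filter on low counts and the estimate of spread in that fit, so the cKO values are a description too. With only the control groups fitted over oocytes, 203 processed pseudogenes were tested and 19 were called higher. The 22 tested parents had changes from −0.21 to 0.21, with 10 above 0 and 0 called with the oocyte as replicate. In MII eggs 21 of the 25 were lower on average than at GV3h, where they had been chosen as high, and 10 of the 25 were lower than at GV. Of 12 processed pseudogenes among the 25 DESeq2 calls and 10 among the 13 limma voom calls, all were higher at GV3h, while the 103 calls made by edgeR on female sums with no filter held 6 higher and 5 lower.

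As a share of all gene counts, the 10237 processed pseudogenes differed little, at 0.352% and 0.376% in the GV females and 0.382%, 0.379% and 0.412% in the GV3h females. The 10 most abundant held 0.154% and 0.172% against 0.157%, 0.156% and 0.173%, with overlap. All others held 0.198% and 0.204% against 0.225%, 0.223% and 0.239%, without overlap. Of the 10237 in the files, 915 passed the filter on low counts and were tested, and 68.6% of them had a fitted change above 0, with medians of 0.40 in controls and 0.38 in cKO oocytes. For all tested genes these values were 44%, −0.035 and −0.012. Without V889 the control median of processed pseudogenes was 0.64, over 1137 tested. Unadjusted edgeR p-values under 0.05 in the higher direction were found for 12.5% of the processed pseudogenes and 1.61% of all tested genes. A gene of low level can pass the filter through the group where it is higher. With no filter the median was 0 to 2 decimals over 6476 processed pseudogenes. With a limit of 1 CPM on the mean of both stages, the median was 0.14 over 289 processed pseudogenes and −0.03 over 11793 protein-coding genes. At 10 CPM and more it was 0 to 2 decimals over 49 processed pseudogenes. Unprocessed pseudogenes, which arise by gene duplication, had a median of −0.15 over 168 genes.

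The summed level of copies as a percentage of that of their parents was compared in classes of that percentage. A parent with at least 90% identity over at least 80% of the copy was found for 585 tested processed pseudogenes. These had passed the filter on low counts, which a low copy can pass through the group where it is higher and which MII eggs did not enter, so their values are a description. Over all 585 the control females were at 1.81% and 1.57% at GV and 2.04%, 2.04% and 2.0% at GV3h. The cKO females overlapped, at 1.89% and 1.5% against 1.73%, 1.85% and 1.70%, and MII females of controls were at 1.80%, 2.14% and 1.94%. For the 310 whose counts over both stages were under 1% of the parent's, the summed CPM was 0.212% and 0.192% of that of the parents in the GV females and 0.432%, 0.44% and 0.422% in the GV3h females. In cKO oocytes it was 0.328% and 0.31% at GV and 0.542%, 0.567% and 0.552% at GV3h. In MII eggs of controls it was 0.182%, 0.172% and 0.189%. With no filter on counts, 3593 copies were in this class, of which 1684 had no count at either stage. The values were then 0.15% and 0.143% in the GV females and 0.311%, 0.31% and 0.309% in the GV3h females, 0.23% and 0.245% against 0.392%, 0.412% and 0.401% in cKO, and 0.126%, 0.12% and 0.127% in MII eggs. For the 191 copies from 1 to 10% the control values were 2.65% and 2.43% at GV and 3.10%, 3.43% and 3.27% at GV3h, the cKO values 3.02% and 2.65% against 3.5%, 3.62% and 3.25%, and the MII values 2.51%, 2.82% and 2.39%. For the 84 copies at 10% and more the females of the stages overlapped, at 92.6% and 86.5% against 105%, 92.6% and 95.2%. In that class cKO females were lower at GV3h, at 70.2% and 68.8% against 55.2%, 58.7% and 52.6%, and MII females were at 106%, 128% and 108%. Read length, base error rate and sequencing run of the libraries are not given in the sources used here, and their part in this result was not tested. The share of counted reads ambiguous between genes was 2.87% and 2.85% in the GV females and 2.94%, 2.91% and 2.94% in the GV3h females, while in cKO females it was 2.85% and 2.77% against 2.76%, 2.81% and 2.76%.

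**Figure D4:**
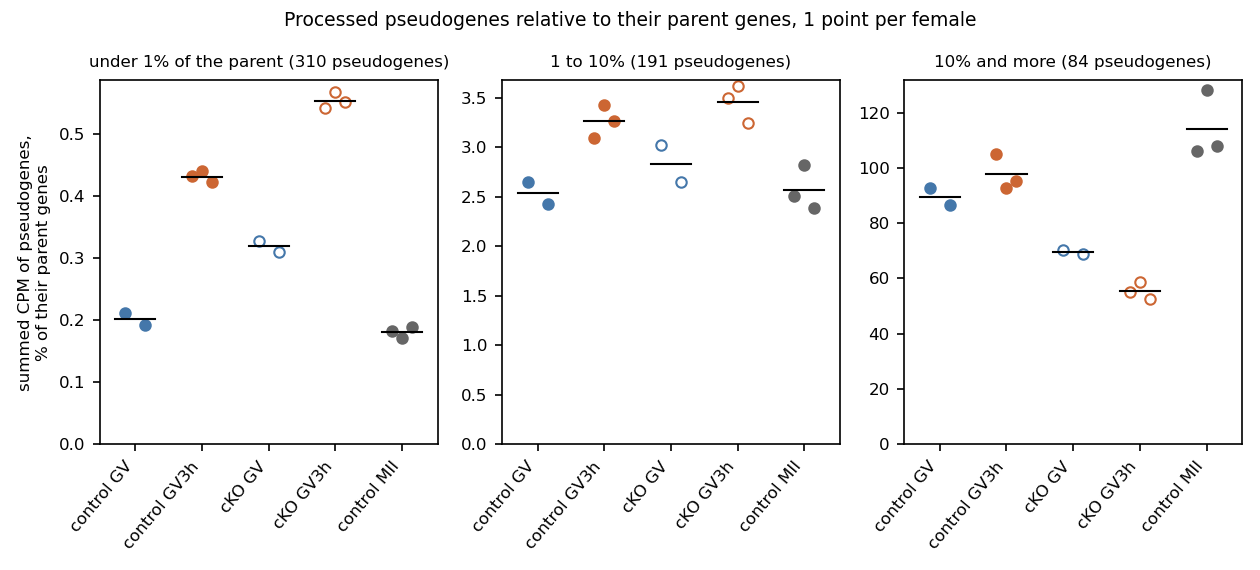
Summed CPM of processed pseudogenes as a percentage of the summed CPM of their parent genes (vertical axes from 0), 1 point per female and a line at the mean, for 3 classes of copies that passed the filter on low counts, which favours copies high in 1 of the groups fitted. In the class under 1% the GV3h females are at 0.422% to 0.44% in controls and the GV females at 0.192% to 0.212%, and MII females, which did not enter the filter, are at 0.172% to 0.189%.

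Some genes were at or near 0 in whole females. In control females, 14 genes were above 20 CPM in at least 1 female mean and under 1 CPM in another, of 7293 genes above 20 CPM. For 4 of these 14 the female means of the stages did not overlap. Of all tested genes 9.62% had lower and 9.01% higher female means at GV3h without overlap. The 5 genes at a mean of at least 20 CPM with the widest range among the GV3h females were Pnpla3, Rhbdf1, Tmem175, Gpat3 and Arhgef15, given as a description. Pnpla3, a lipid-droplet acyl hydrolase, averaged 1.16 CPM in V982 and 81.3 to 96.4 CPM in the other 4 control females. Rhbdf1, an inactive rhomboid protein, averaged 0.0832 CPM in V889 and 0.198 CPM in V982, and 48.6 to 54.3 CPM in V856, V951 and V995. Gpat3, of glycerolipid synthesis, was at 142 CPM in V856 and 63.3 CPM in V995 and at most 1.23 CPM in the other females. Tmem175, a lysosomal potassium channel, averaged 2.19 CPM in V951 and 1.71 CPM in V995, against 34.5 to 83.3 CPM in the others. Its adjusted p was 0.0186 by limma voom. Arhgef15 was at 0 in V856, at 0.0988 CPM in V982 and at 21.9 to 33.7 CPM in V889, V951 and V995.

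With 2 and 3 females, a difference of such a gene between the stages cannot be told apart from one between females. Coro2b, an actin-binding coronin, and Gm47877, an antisense gene, were the 2 genes (0.0124% of 16123) that edgeR called on female sums when only the control groups were fitted. Coro2b averaged 28.1 and 13.8 CPM in the GV females and 0.368, 1.09 and 0.791 CPM in the GV3h females, a log2 change of −4.77 with an adjusted edgeR p of 0.0141 in that fit. Its cKO females were at 0.889 and 18.5 CPM at GV and at 0.547, 0.591 and 28.7 CPM at GV3h, so high and low females occurred at both stages there. Gm47877 averaged 9.04 and 13.7 CPM against 0.368, 0.897 and 0.74 CPM, a change of −4.08 (adjusted edgeR p 0.0146 in that fit, DESeq2 on female sums 0.0209). Strand use in counting is not given in the sources used here, so counts of an antisense gene are uncertain.

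**Figure D5:**
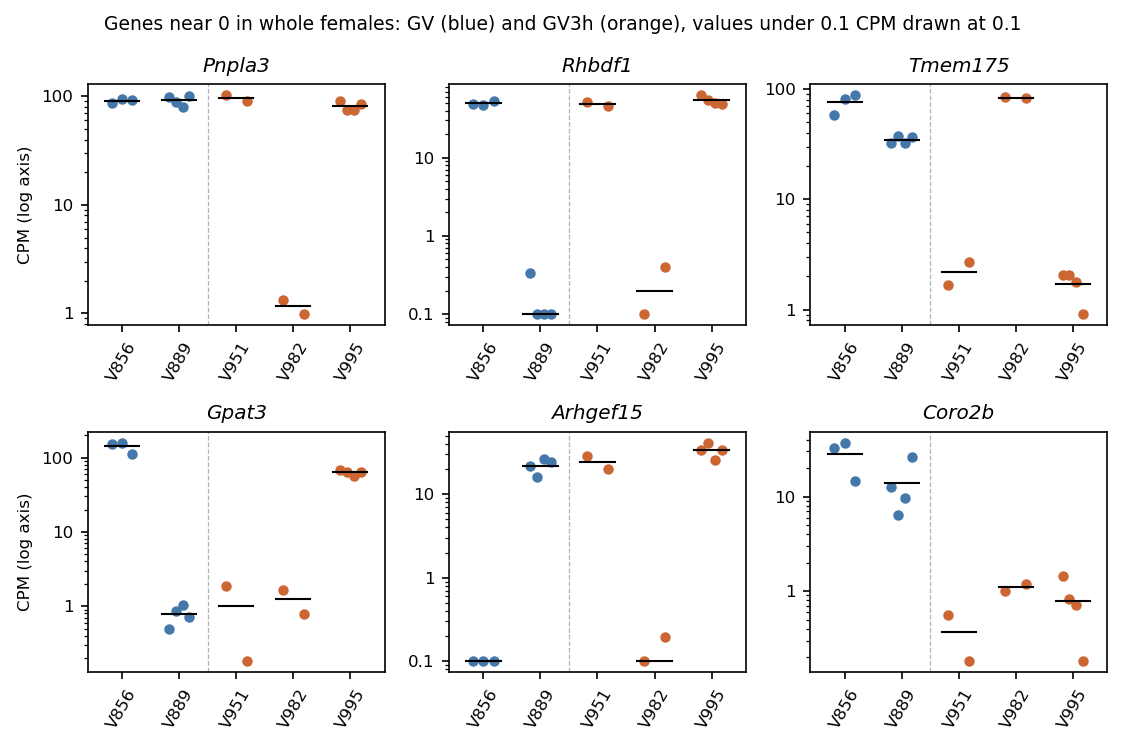
CPM of 6 genes (log axis) in the 15 control oocytes by female, GV in blue and GV3h in orange, with the female mean as a line and values under 0.1 CPM drawn at 0.1. For Pnpla3 the oocytes of V982 are near 1 CPM while all other control oocytes are above 70 CPM.

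The cKO oocytes gave the same step in other animals, with 15 GV oocytes of 2 females (V857 and V888) and 11 GV3h oocytes of 3 females (V946, V983 and V993). In both genotypes every GV3h female had a higher number than every GV female. What the numbers follow is not given in the sources used here. A change shared by the genotypes therefore cannot be told apart from a difference that goes with this order of the animals. There edgeR called 0 of 19257 genes on female sums (0%) and 280 of 15635 with the oocyte as replicate (1.79%). An unadjusted p under 0.05 on female sums was found for 482 genes (2.5%). The log2 changes in controls and in cKO oocytes were nearly unrelated across the 19257 genes (Spearman rho 0.0249), and 49.4% had the same sign. Genes are not independent replicates, so this is a description. Of the 34 genes called higher in controls with the oocyte as replicate, 32 were above 0 in cKO oocytes, and of the 20 called lower 10 were below 0. Outside processed pseudogenes, 551 genes had an unadjusted p under 0.05 in controls, and 282 of them (51.2%) had the same sign in cKO oocytes. Gm28438, a nuclear copy that matches mt-Nd3 at 99.7% of its bases, and the antisense gene Gm43126 were the 2 of these 20 lower genes that also had an unadjusted edgeR p under 0.05 and the same sign in cKO oocytes, and are named after their values were seen. Gm43126 had log2 changes of −4.63 in controls and −4.51 in cKO oocytes, with an adjusted p of 0.0393 in controls by DESeq2 on female sums. Gm28438 averaged 2.73 and 3.15 CPM in the control GV females and 0.639, 0.35 and 0.446 CPM in the GV3h females, with log2 changes of −2.66 in controls and −1.63 in cKO oocytes and an adjusted p of 0.00133 in controls by DESeq2 on female sums.

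The difference between the genotypes in this step was tested in the same edgeR fit. It called 0 of 19257 genes (0%), with 480 at an unadjusted p under 0.05 (2.49%), and 15 of 15635 (0.0959%) with the oocyte as replicate. The genes that follow were named for their control change, so their intervals are a description. The difference, cKO change minus control change, was 1.20 (0.12 to 2.28) for Myo10, 1.38 (0.55 to 2.22) for Tmsb10, −1.14 (−1.96 to −0.31) for Pml and −1.15 (−2.06 to −0.24) for Kdm5d, each with an adjusted edgeR p of 1. For Arhgap11a it was 0.49 (−0.06 to 1.03), for Mettl23 0.46 (−0.43 to 1.36), for Gm26917 7.90 (3.28 to 12.51), for Gm5514 0.33 (−0.29 to 0.95) and for Gm12346 −0.46 (−1.37 to 0.45). For Dppa3-ps it was −0.30 (−1.65 to 1.06) and for mt-Cytb 0.04 (−0.47 to 0.55).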

How the data were processed

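The polyA gene files deposited by the authors hold raw read counts per Ensembl mouse gene ID, 1 oocyte per file. Per the labels' protocols, polyA RNA of each oocyte was captured on oligo(dT) beads, reverse transcribed, amplified and made into Nextera libraries. Cutadapt 2.5, STAR 2.7.2a, SAMtools 1.9 and HTSeq 0.9.1 and the build mm10 are named in the submitters' processing notes. The files hold 0 spike-in lines, so values are relative to the other genes of a library. Of 55573 gene IDs, 55394 had a symbol and 55480 were in GENCODE M21 (GRCm38), which gave gene types and coordinates.

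Counts were summed per female for the 10 females of the 4 polyA groups (GV and GV3h, control and cKO). The filter was filterByExpr and the scaling TMM. The test was the quasi-likelihood test of edgeR 4.0.16 (glmQLFit, glmQLFTest, two-sided, R 4.3.3), with 6 residual degrees of freedom. Genes were called at a Benjamini-Hochberg adjusted p under 0.05. CPM values of oocytes are TMM-scaled, and intervals are 95% intervals of the fit. The edgeR fit was also run on simulated counts, with an outcome that is not reported here. The alternatives were the oocyte as replicate, limma 3.58.1 voom, DESeq2 1.42.0, other scalings, filters and groups in the fit, and leaving out each control female. The ratios of copies to parents with no filter on counts were added after seeing the data.

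Genes were named by rule: the first 4 members of each of 17 lists, Exosc10, and genes called with the oocyte as replicate but not by edgeR on female sums, at an average log2 CPM of at least 3 with female means that did not overlap. The 5 genes most variable among the GV3h females, at a mean of at least 20 CPM, were added. The members, the lists and the rule were chosen with earlier results of these data known, and the group of processed pseudogenes was chosen after its values were seen. List members and other genes named outside this rule, such as Dis3l, Tut4, Hsf2, Xbp1, Dnajb9, Pde7b and Prkar1b, were also chosen after their values were seen. Parents of pseudogenes were the best plus-strand protein-coding match by blastn 2.17.0 (e-value limit 1e-20). Other steps used Python 3.11.15, pandas 2.3.3, numpy 2.4.6, scipy 1.17.1 and matplotlib 3.10.9. RiboMinus and rRNA files were not used here. The sequence of another copy and its parent is not reported here.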

Additional observations from a re-analysis of the deposited data

Results flagged for a closer look

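In 4 of the 154 groups of 7 or 8 control oocytes examined (77 sample measures and named genes at 1 CPM and more, at each stage), 1 oocyte lay far from the others by Dixon's criterion, which flags about 1 group in 20 by chance. Cdk1 was at 172 CPM in GV3h oocyte 2 of V995, against 152 CPM in the next highest. Cpeb1 was at 1300.0 CPM in GV3h oocyte 2 of V951, against 1030.0 CPM. Dis3 was at 10.0 CPM in GV oocyte 1 of V856, against 16.1 CPM in the next lowest. Hspa8 was at 43.5 CPM in GV oocyte 2 of V889, against 54.7 CPM.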

How the results depend on the processing

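Calls on female sums depended on the test and the filter. The control comparison gave 0 calls on female sums with edgeR and 0 with DESeq2 size factors, library totals, all 6 groups or a mean of at least 50 counts. It gave 54 with the oocyte as replicate (66 with only the groups compared, added after seeing the data), 13 with limma voom and the female as block, 25 with DESeq2, 103 with no filter and 2 with only the control groups. Leaving out each control female gave 0 to 2 calls, the 2 (Gm26917 and Hmgn3) without V889. The cKO comparison gave 0, and 280, 86, 15, 15 and 72 with the oocyte as replicate, the same with only the groups compared, limma voom, DESeq2 and no filter. The genotype difference gave 0, and 15, 2 and 64 with the oocyte as replicate, DESeq2 and no filter, and 0 to 2 when a control female was left out. The 54 calls became 14 to 75 when a control female was left out, 14 without V995 and 35 without V951. Intervals within 2-fold covered 46.1% of genes, 61.8% with only the control groups and 65.1% with the oocyte as replicate. These fits tested fewer genes of low count. The difference in genes detected, −95, was −476 with at least 10 counts and −354 (without V889) to 164 (without V856) when a female was left out. The median of processed pseudogenes, 0.40, was 0.23 with the oocyte as replicate and 0.14 at 1 CPM and more, and 0.36 to 0.64 (without V889) when a female was left out. The median of mitochondrially encoded genes, −0.45, ranged from −0.59 to −0.33 when a female was left out, with all 7 below 0 each time. Of 1110 alternative values for 77 named genes, 1030 moved by less than 1 standard error without passing the threshold, 47 moved by more, 33 passed it in the same direction and 0 reversed. No paired analysis was possible because no female gave oocytes of both stages and the groups compared share no number. Intervals were widest for genes of low CPM.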
